A study of Caenorhabditis elegans with 20 samples.

Results

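The genes dod-21, dod-22, dod-24, C32H11.4 and F55G11.2 lie close together on chromosome IV of Caenorhabditis elegans, and they are 5 of the 46904 genes in the deposited count table. They were picked by their WormBase IDs as a set of neighbours, and the set was put together with earlier results of these data known, namely the response of ns889 animals to a mold and the way it differed from that of wild-type animals. Their values in those comparisons, and in the comparisons of ns889 with wild type that share the same libraries, are therefore given as descriptions with no p. The study asked which genes change in worms that meet the mold Penicillium brevicompactum. Wild-type (WT) animals and animals with the allele ns889 were each grown without the mold or with it on the plate, which makes 4 groups of 3 replicates. The labels do not name the gene that ns889 affects. In all groups the animals were young adults, about 48 hours from L1 arrest at 20 C, on NGM plates with Escherichia coli OP50 as food. Poly(A) RNA of whole animals was sequenced with a stranded kit, so no tissue was sampled alone. In RNA of whole animals, fewer cells of a type and less RNA per cell cannot be told apart.

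The members encode small proteins with a CUB-like domain, a family of which C. elegans has many copies, several of them in tandem. Genes of this family are known as part of the intestinal response to bacterial pathogens, where the p38 MAP kinase PMK-1 is needed for the expression of many of them. The name dod stands for downstream of DAF-16, the FOXO transcription factor that is held out of the nucleus by insulin-like signalling. dod-17 to dod-24 were named as genes that are lower when DAF-16 is active. What the single proteins do is not known in biochemical terms.

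The 12 replicates held 95998037 to 115940062 counts, so a floor of 3 counts corresponds to 0.0259 to 0.0313 CPM (counts scaled to library size). The floors reflect counting error alone. The SD and SE values printed with ± include the spread between replicates. Nothing in the labels says that replicates came from separate cultures, so the p-values reflect the spread of these samples only, which may be technical. WT no-mold replicate 1 lay farthest from its group, with a root mean square log2 distance of 0.424, followed by WT mold replicate 3 at 0.355 and WT mold replicate 1 at 0.328. The other 9 libraries lay at 0.152 to 0.262.

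In the WBcel235 coordinates of the deposited table the members span 48.03 kb. C32H11.4 (WBGene00007867) comes first, at 12921264 to 12923288 on the plus strand, with 8 exons. dod-21 (WBGene00007873) lies at 12936738 to 12937988 on the plus strand and has 3 exons. dod-24 (WBGene00007875) follows at 12940106 to 12941405 on the minus strand, also with 3 exons. dod-22 (WBGene00010125), at 12965387 to 12967318 on the plus strand, and F55G11.2 (WBGene00010123), at 12967448 to 12969289 on the minus strand, have 8 exons each. These last 2 genes point toward each other, and 129 bases separate their ends. dod-21 and dod-24 are 2117 bases apart with 1 gene between them, while 13449 bases and 7 genes separate C32H11.4 from dod-21, and 23981 bases and 9 genes separate dod-24 from dod-22. The exons of a member add up to 1078 to 1208 bases. No member shares exon bases with another annotated gene. How the authors' counting treated reads that match several places is not given in the sources used here, so reads shared between similar members of the family remain an uncertainty for each value.

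dod-24 was the most abundant member in every library, in CPM and per length. Without mold, WT animals had 32.7, 23.4 and 37.7 CPM of dod-24 in replicates 1 to 3, and ns889 animals had 31.4, 23.2 and 20.6 CPM. On mold the WT values were 33.5, 26.2 and 28.4 CPM. On mold the ns889 values were 251, 209 and 175 CPM. The 3 libraries of ns889 on mold stood far above the other 9, which overlapped with each other in all 3 groups: the lowest library of ns889 on mold was 4.65 times the highest of the others.

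C32H11.4 was also highest in ns889 on mold, at a lower level. Its WT values were 2.95, 6.11 and 6.89 CPM without mold and 5.22, 7.19 and 4.67 CPM with it. In ns889 they were 3.14, 3.83 and 5.32 CPM without mold and 44.3, 34.1 and 22.4 CPM with it. Again ns889 on mold was above all other libraries, by at least 3.12 times, and the other 3 groups overlapped. Within ns889 on mold, replicate 1 was highest and replicate 3 lowest for both dod-24 and C32H11.4.

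F55G11.2 had a different pattern in WT. There it was at 6.13, 9.70 and 9.35 CPM without mold and at 3.93, 4.15 and 4.03 CPM with it, so every library on mold was lower. In ns889 it was at 7.64, 11.1 and 11.1 CPM without mold and at 30.3, 29.7 and 18.6 CPM with it. The order of the groups was thus ns889 on mold, then both groups without mold, which overlapped, then WT on mold. The lowest library of ns889 on mold was 1.67 times the highest of the other 9.

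dod-22 was low throughout. It was at 1.80, 1.68 and 1.86 CPM in WT without mold and at 1.62, 1.09 and 1.46 CPM in WT on mold. In ns889 it was at 1.26, 0.653 and 0.704 CPM without mold and at 2.20, 1.77 and 2.25 CPM with it. Here ns889 on mold overlapped with WT without mold, and ns889 without mold was the lowest group, overlapping with WT on mold. Its smallest count in a library was 65, which gives a counting error of 12.4%, against 2.21% for the smallest count of dod-24. The 8 pairs of repeat sequencing runs differed by up to 36.6% for dod-22, by up to 15.5% for F55G11.2, by up to 7.45% for C32H11.4 and by up to 5.95% for dod-24.

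dod-21 was at or near the floor. It had 0 counts in 8 of the 12 libraries, which allows up to 0.0259 to 0.0313 CPM, and 3 counts in WT mold replicate 1. In ns889 on mold it had 5, 4 and 1 counts, and 2 of these were above the floor of 3. It was too low to be tested, which leaves 4 of the 5 members with a fold change.

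**Figure D1:**
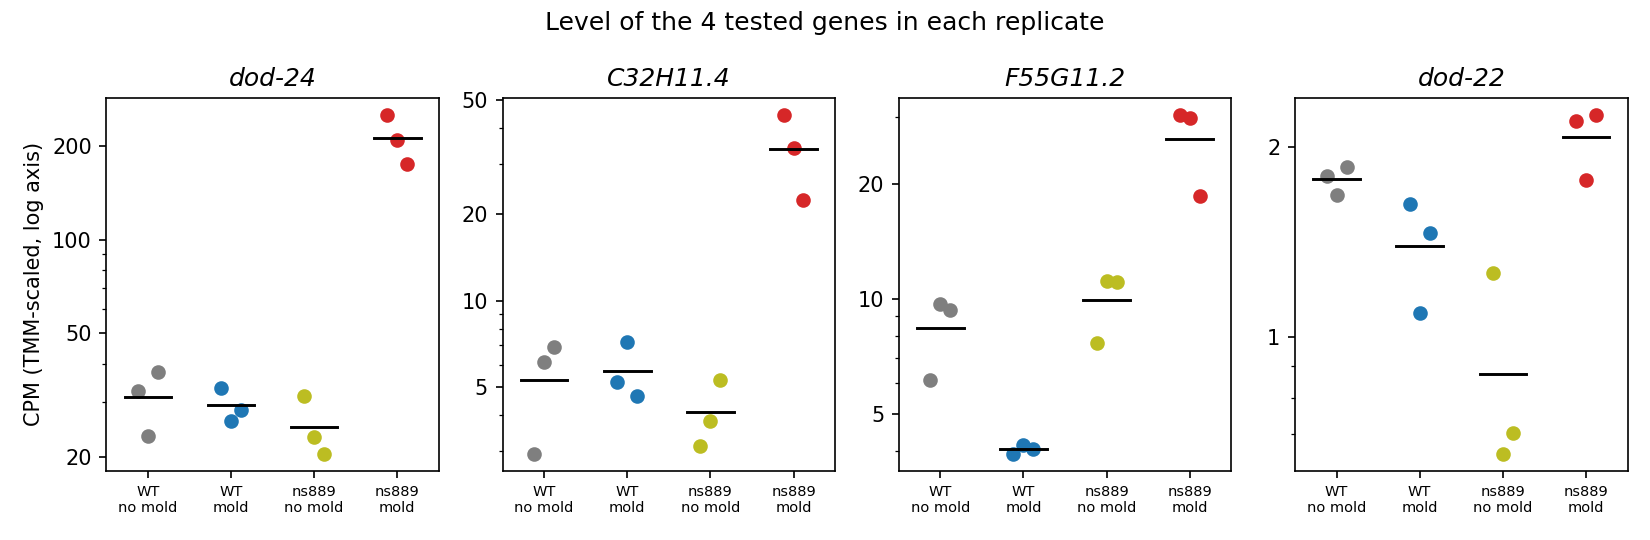
CPM of the 4 tested members in the 12 libraries by group, 1 panel a gene, each with its own log axis; points are replicates and bars are group means. The 3 libraries of ns889 on mold lie above all others for dod-24, C32H11.4 and F55G11.2, and overlap with WT without mold for dod-22.

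Levels of different genes can be compared only per length, so CPM was also divided by the kilobases of exon. On this scale dod-24 had a mean level of 25.9 in WT without mold, 24.3 in WT on mold, 20.7 in ns889 without mold and 175 in ns889 on mold. F55G11.2 was next in WT without mold, with 7.78, followed by C32H11.4 with 4.53 and dod-22 with 1.52. In ns889 on mold C32H11.4 (28.6) and F55G11.2 (24.3) were at similar mean levels per length, and dod-22 remained at 1.77. Among the 16980 genes tested, ranked by level per length with 1 as the highest, dod-24 was at rank 4613 to 5893 in ns889 without mold and at rank 455 to 684 in ns889 on mold. dod-22 stayed at ranks 11554 to 13993 in all libraries. Summed over the members, the level was 37.7 to 55.8 CPM in the 9 libraries outside ns889 on mold and 218 to 328 CPM in the 3 within it. dod-24 alone made up 54.6 to 80.2% of that sum.

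The first comparison asked what the mold did to the cluster in WT animals. F55G11.2 fell to 0.482 times its level, and the other tested members did not pass. The mean of F55G11.2 was 8.39 ± 1.97 CPM without mold and 4.04 ± 0.109 CPM with it (SD, n = 3 for each group). Its log2 fold change was -1.05 ± 0.22 (SE), with adjusted p = 0.0272 in edgeR's quasi-likelihood test. dod-22 was lower in all 3 libraries on mold, 1.39 ± 0.274 against 1.78 ± 0.0924 CPM, but its log2 fold change of -0.35 ± 0.25 did not pass (adjusted p = 0.383). dod-24 was at 31.3 ± 7.23 CPM without mold and 29.4 ± 3.72 CPM with it, a log2 fold change of -0.09 ± 0.19 (adjusted p = 0.793). C32H11.4 was at 5.32 ± 2.09 and 5.69 ± 1.32 CPM, a log2 fold change of 0.10 ± 0.32 (adjusted p = 0.864). For dod-24 and C32H11.4 the difference was smaller than the spread between replicates, and the sign changed when single libraries were left out. The WT response is also 1 of the 2 terms of the difference that was known when the members were chosen, so these p-values are not independent of that choice.

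In WT, 1 of 4 tested members was therefore lower and 0 were higher; at an unadjusted p under 0.05 the counts were the same, and DESeq2 gave 1 lower and limma-voom 0. Of all genes tested, 4.6% were called lower and 1.67% higher, and 9.48% were lower without overlap between the replicates, as dod-22 and F55G11.2 were. The call of F55G11.2 was lost without some WT libraries, while its log2 fold change stayed between -1.24 and -0.94 over the omissions. In the fits listed next, calls over all genes were also fewer, at 97 to 162 higher and 62 to 103 lower, against 283 and 781. The adjusted p of F55G11.2 in edgeR's quasi-likelihood test was as low as 0.00156 in 1 omission. It was 0.107 without WT no-mold replicate 2, 0.113 without replicate 3, 0.0778 without WT mold replicate 2 and 0.0789 without replicate 3. In limma-voom it was 0.0753, and in a fit of the WT groups alone 0.112. Among the marker lists, that of sperm moved in the same comparison. The summed level of 4 sperm genes was 70.2 to 131 CPM without mold and 47.1 to 64.1 CPM with it, with 3 of 4 genes lower and none at 0, and that of 7 intestinal genes was 1410 to 2086 and 1514 to 2153 CPM, which overlap, with 0 of 7 past the threshold (1 lower at an unadjusted p under 0.05, and 0 in DESeq2). The sperm calls were lost without WT no-mold replicate 2 or 3 or WT mold replicate 2, and 1 of them held without WT mold replicate 3. The sums of the muscle, epidermal, neuronal and oocyte lists overlapped between the groups. The part of sperm genes in the value of F55G11.2 was not tested.

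In ns889 animals the 4 tested members were higher on mold. dod-24 was at 25.1 ± 5.63 CPM without mold and 212 ± 38.2 CPM with it, a fold change of 8.45 (log2 3.08 ± 0.21). C32H11.4 went from 4.09 ± 1.12 to 33.6 ± 10.9 CPM, which is 8.20-fold (log2 3.04 ± 0.35). F55G11.2 went from 9.95 ± 2.00 to 26.2 ± 6.63 CPM, or 2.64-fold (log2 1.40 ± 0.22). dod-22 went from 0.873 ± 0.337 to 2.07 ± 0.261 CPM, or 2.37-fold (log2 1.24 ± 0.25). The fold changes thus fell into a pair above 8, dod-24 and C32H11.4, and a pair below 3.

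All 4 tested members were past the threshold in ns889, where 1.86% of all genes were called higher; since the members were chosen with this comparison known, nothing is read from the count. The replicates of the groups did not overlap for any of the 4, as for 12.7% of all genes in the same direction. The call of dod-22 was lost without ns889 no-mold replicate 2 (log2 1.07) or 3 (log2 1.11), and without ns889 mold replicate 1 (log2 1.20) or 3 (log2 1.18). The calls of dod-24, C32H11.4 and F55G11.2 held without any single library, and because of that choice nothing is read from this either. Markers of the intestine, where genes of this family are known to be expressed, summed to 1501 to 1669 CPM without mold and 1796 to 1987 CPM with it, and none of the 7 was at 0. The sum of 3 epidermal genes was 4.80 to 9.39 CPM without mold and 14.7 to 25.3 CPM with it. In both lists 0 genes passed, with 2 higher at an unadjusted p under 0.05 in each, and 0 in DESeq2 and in limma-voom. Other sums that did not overlap were those of 4 sperm genes, 98.3 to 110 CPM without mold and 65.7 to 83.4 CPM with it, of 4 oocyte genes, 1888 to 2188 and 2199 to 2751 CPM, and of 3 muscle genes, 6269 to 6546 and 5389 to 6233 CPM. In each of these 3 lists 0 genes passed, with 2 sperm genes lower at an unadjusted p under 0.05 and 0 called by DESeq2 or limma-voom. The neuronal sums overlapped. The part of these tissues in the members' values was not tested.

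**Figure D2:**
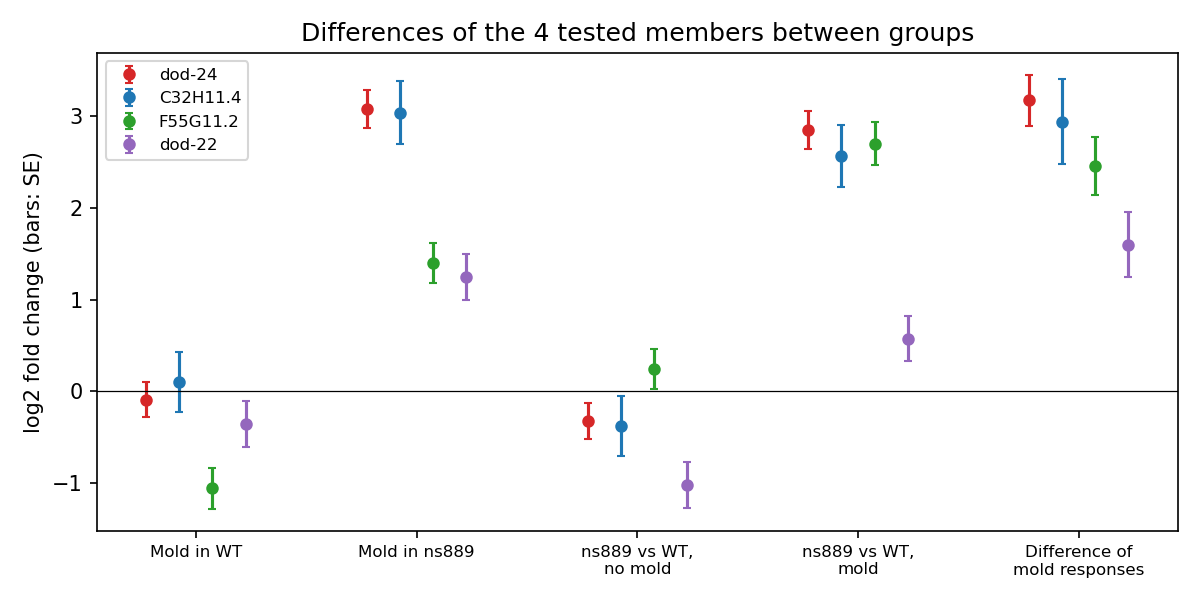
Log2 fold change of the 4 tested members in each comparison; bars are standard errors. In WT on mold against no mold the values lie between -1.05 and 0.10, in ns889 between 1.24 and 3.08.

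Without mold, no tested member passed between ns889 and WT animals. The count was 0 of 4, where 2.42% of all genes were called higher and 0.453% lower in ns889, with 1 member lower at an unadjusted p under 0.05, and 1 in DESeq2 and in limma-voom. That member was dod-22, whose log2 difference was -1.02 ± 0.25 and whose replicates were lower without overlap, as for 5.97% of all genes. It passed without ns889 no-mold replicate 1, at -1.39. The log2 differences of dod-24 (-0.32 ± 0.19), C32H11.4 (-0.38 ± 0.33) and F55G11.2 (0.25 ± 0.22) were within the overlap of the replicates. The intestinal sums of 1501 to 1669 CPM in ns889 lay within the range of WT, 1410 to 2086 CPM. Of the 7 genes 0 had a positive log2 difference, and the median was -0.224, against -0.00715 over all genes. In edgeR 0 passed and 0 were lower at an unadjusted p under 0.05, while in DESeq2 these numbers were 0 and 3.

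On mold, the 4 tested members were at higher levels in ns889 than in WT. dod-24 was 7.21-fold higher (log2 2.85 ± 0.21), F55G11.2 6.49-fold (2.70 ± 0.23) and C32H11.4 5.90-fold (2.56 ± 0.34). dod-22 was 1.49-fold higher (0.57 ± 0.25) with no overlap between replicates, as for 17.9% of all genes, and it did not pass. F55G11.2, which rose less with mold in ns889 than dod-24 did, came close to it here, and its WT level on mold was the lowest of its 4 groups. Of the members 3 of 4 passed, and 5.12% of all genes were called higher; the libraries are those of the 2 mold responses, so nothing is read from the count. These 3 calls held without any single library, and nothing is read from this either. The epidermal sum was 2.89 to 8.52 CPM in WT on mold and 14.7 to 25.3 CPM in ns889 on mold, and 1 of 3 epidermal genes, bli-1, was higher (log2 2.06 ± 0.50, adjusted p = 0.0283). The bli-1 call was lost without WT mold replicate 2 or 3 or ns889 mold replicate 1 or 2, and all 3 genes passed without WT mold replicate 1. The sperm sum was 47.1 to 64.1 CPM in WT on mold and 65.7 to 83.4 CPM in ns889 on mold, and 1 of 4 sperm genes, spe-42, was higher (log2 1.39 ± 0.23, adjusted p = 0.00303). Of 3 neuronal genes 1, unc-31, was higher (log2 0.53 ± 0.12, adjusted p = 0.0249), with overlapping sums of 133 to 176 and 125 to 159 CPM. The unc-31 call was lost without WT mold replicate 2 or 3 or ns889 mold replicate 2 or 3. The intestinal sums overlapped, at 1514 to 2153 CPM in WT on mold and 1796 to 1987 CPM in ns889 on mold. Of the 7 intestinal genes 0 passed, with a median log2 difference of -0.0252, against -0.00752 over all genes. The muscle and oocyte sums overlapped too. The part of these genes' tissues in the members' values was not tested.

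The difference between the mold responses of ns889 and WT, on the log2 scale, was 3.17 ± 0.28 for dod-24, 2.94 ± 0.47 for C32H11.4, 2.45 ± 0.32 for F55G11.2 and 1.60 ± 0.35 for dod-22. Of the 16980 genes, 22 passed in this contrast, 6 of them with a more positive response in ns889, which is 0.0353% of the genes tested. dod-24, C32H11.4 and F55G11.2 were 3 of these 6; the members were chosen with this contrast known. The other 3 were irg-5 (log2 2.96), clec-3 (2.65) and F10D2.10 (1.20), which lie outside the cluster. The number of genes called with a more positive response in ns889 depended on the setting. It was 44 in DESeq2, 5 in limma-voom and 4 to 24 without single libraries. Without every replicate 1, 2 and 3 it was 587, 0 and 2. Without WT no-mold replicate 1 and WT mold replicate 3 together it was 85. With single libraries left out, C32H11.4 kept its call without WT no-mold replicate 1, ns889 no-mold replicate 3 or ns889 mold replicate 3. It lost the call in the 9 other omissions, where its value ranged from 2.69 to 3.14. The call was also lost in limma-voom (2.83), with no filter (2.95), with a filter of 5 CPM (2.98) and against a minimum log2 fold change of 1. dod-22 passed without ns889 no-mold replicate 1 (log2 1.96). The calls of dod-24 and F55G11.2 held without any single library, which is a description too, since both were chosen with this contrast known.

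The members also varied together to different degrees. Over the 12 libraries, which share the 4 groups and so the steps between them, Pearson's r of log2(CPM + 0.5) was 0.932 between dod-24 and C32H11.4, 0.798 between dod-24 and F55G11.2 and 0.809 between C32H11.4 and F55G11.2. dod-22 had r = 0.669 with dod-24, 0.551 with C32H11.4 and 0.303 with F55G11.2, its closest neighbour on the chromosome. The 2 genes that lie end to end were thus the pair with the lowest r.

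The next question was whether other genes of the region changed as well. Within 100 kb of the outermost members the table has 79 other genes, of which 45 were abundant enough to test. In WT on mold 5 of these 45 rose and 1 fell (11.1% and 2.22%, against 1.67% and 4.6% of all genes), and their median log2 fold change was 0.0343, against 0.00842 over all genes. In ns889 on mold 12 of 45 rose and 0 fell (26.7% and 0%, against 1.86% and 1.28% of all genes), with a median of 0.337 against -0.0188. At an unadjusted p under 0.05 in edgeR 3 were lower in ns889, DESeq2 called 1 lower and limma-voom 0. All 5 neighbours that rose in WT were among the 12 that rose in ns889, which is 41.7% of the latter.

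The neighbour with the clearest change in both genotypes was F55G11.8, a gene between dod-24 and dod-22 that rose in WT as well as in ns889. Its values were 3.07, 5.95 and 5.85 CPM in WT without mold and 18.9, 15.1 and 14.3 CPM in WT on mold. In ns889 they were 5.74, 4.91 and 5.26 CPM without mold and 28.2, 28.2 and 24.4 CPM with it. In both genotypes every library on mold was above every library without it. The log2 fold change was 1.70 ± 0.21 in WT (adjusted p = 0.00125) and 2.34 ± 0.22 in ns889 (adjusted p = 1.18e-04), both from edgeR's quasi-likelihood test. F55G11.4, just beyond F55G11.2, also rose in both, by 0.73 ± 0.20 in WT (adjusted p = 0.0483) and 1.29 ± 0.20 in ns889 (adjusted p = 0.00383). dod-17, another gene named for DAF-16 and a neighbour within 100 kb, was at 17.9, 34.3 and 37.4 CPM in WT without mold, 27.9, 20.1 and 17.3 CPM in WT on mold, 20.6, 17.4 and 20.5 CPM in ns889 without mold and 60.3, 61.3 and 45.5 CPM in ns889 on mold. ns889 on mold was above all other libraries of dod-17. Its log2 fold change was -0.46 ± 0.24 in WT, which did not pass (adjusted p = 0.263), and 1.51 ± 0.25 in ns889 (adjusted p = 0.00546). The difference of both responses was 1.97 ± 0.35 for dod-17 and did not pass (adjusted p = 0.0682).

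The remaining neighbours that rose in ns889 were lower in abundance or farther away. F55G11.7, beside F55G11.8, rose by 2.36 ± 0.41, C32H11.3, the gene next to C32H11.4, by 1.59 ± 0.33, K08D8.12 by 1.82 ± 0.30, ZK896.4 by 1.59 ± 0.24 and K10D11.6 by 1.20 ± 0.19 on the log2 scale. Smaller or less steady rises were those of ZK896.5 (0.98), K08D8.5 (0.69), the secreted SCP-like gene scl-2 (1.06) and the cuticle collagen gene col-131 (2.77 ± 0.60). F55G11.6, between dod-24 and dod-22, had a log2 value of 3.43 ± 1.02 and did not pass; none of its libraries was above 0.391 CPM. In WT the further rises were those of ZK896.5 (0.99), ZK896.4 (0.94) and K08D8.12 (1.36), and ZK896.1 fell (-1.69 ± 0.38). Of the 7 tested genes that lie between the outermost members, 1 rose in WT and 2 rose in ns889, against 1.67% and 1.86% of all genes. The other 4 of these 7 did not pass in either genotype: the log2 values in ns889 were 2.20 ± 0.84 for srlf-4, 0.41 ± 0.42 for the pseudogene WBGene00007870, -0.38 ± 0.29 for F55G11.1 and -0.24 ± 0.25 for the pseudogene WBGene00000021.

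Single libraries moved these counts. In WT the count of 6 became 13 without WT no-mold replicate 1, 1 without replicate 2, 2 without replicate 3, 2 without WT mold replicate 2 and 3 without WT mold replicate 3. The calls over all genes moved as well, from 283 higher and 781 lower of 16980. Without WT no-mold replicate 1 they were 2263 and 2547 of 17227. Under the other omissions just named they were 97 to 162 higher and 62 to 103 lower. F55G11.8 passed in WT under each of these omissions, while F55G11.4 was lost under each omission of a WT library other than WT no-mold replicate 1. ZK896.1 and ZK896.4 were lost without WT no-mold replicate 2 or 3 or WT mold replicate 2 or 3, K08D8.12 without the first 3 of these and ZK896.5 without WT no-mold replicate 2. In ns889 the count of 12 became 7 without ns889 no-mold replicate 2 and 7 without ns889 mold replicate 2. ZK896.5, K08D8.5, C32H11.3, scl-2 and col-131 were lost both times. Over all genes, 316 higher and 218 lower became 128 and 81 without the first and 173 and 81 without the second. C32H11.3 was also lost without ns889 no-mold replicate 3 or ns889 mold replicate 1, ZK896.5 without ns889 no-mold replicate 3, and scl-2 without ns889 no-mold replicate 1 or ns889 mold replicate 3. K08D8.5 was lost without any of the 6 ns889 libraries. col-131 was lost without each of them other than ns889 mold replicate 3.

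Of the neighbours that start within 50 kb of the start of dod-24, 8 of 21 rose in ns889 with a median log2 fold change of 1.20, and 19 of 21 were positive. Of those farther away 4 of 24 rose, with a median of 0.0142. Over all genes 1.86% were called higher in ns889, with a median of -0.0188. In WT the nearer group had 3 of 21 higher with a median of 0.32, against 1.67% and 0.00842 over all genes. That count was 1 without WT no-mold replicate 2 or 3 or WT mold replicate 2, and 3 genes fell as well without WT no-mold replicate 1. The distance was chosen after the values were seen, and the difference between near and far was not tested. C32H11.4, dod-22 and F55G11.2 also share a layout of 8 exons that add up to little more than 1 kb. Of the window's other genes 10 have it as well (1023 to 1212 bases over all 13), 8 of them tested. Of these 8, 7 were positive and 5 rose in ns889, with log2 values from -0.32 to 3.43, and 4 were positive and 2 rose in WT, with values from -0.88 to 1.70. The shares of all genes called higher were 1.86% in ns889 and 1.67% in WT. This layout too was chosen after the values were seen.

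**Figure D3:**
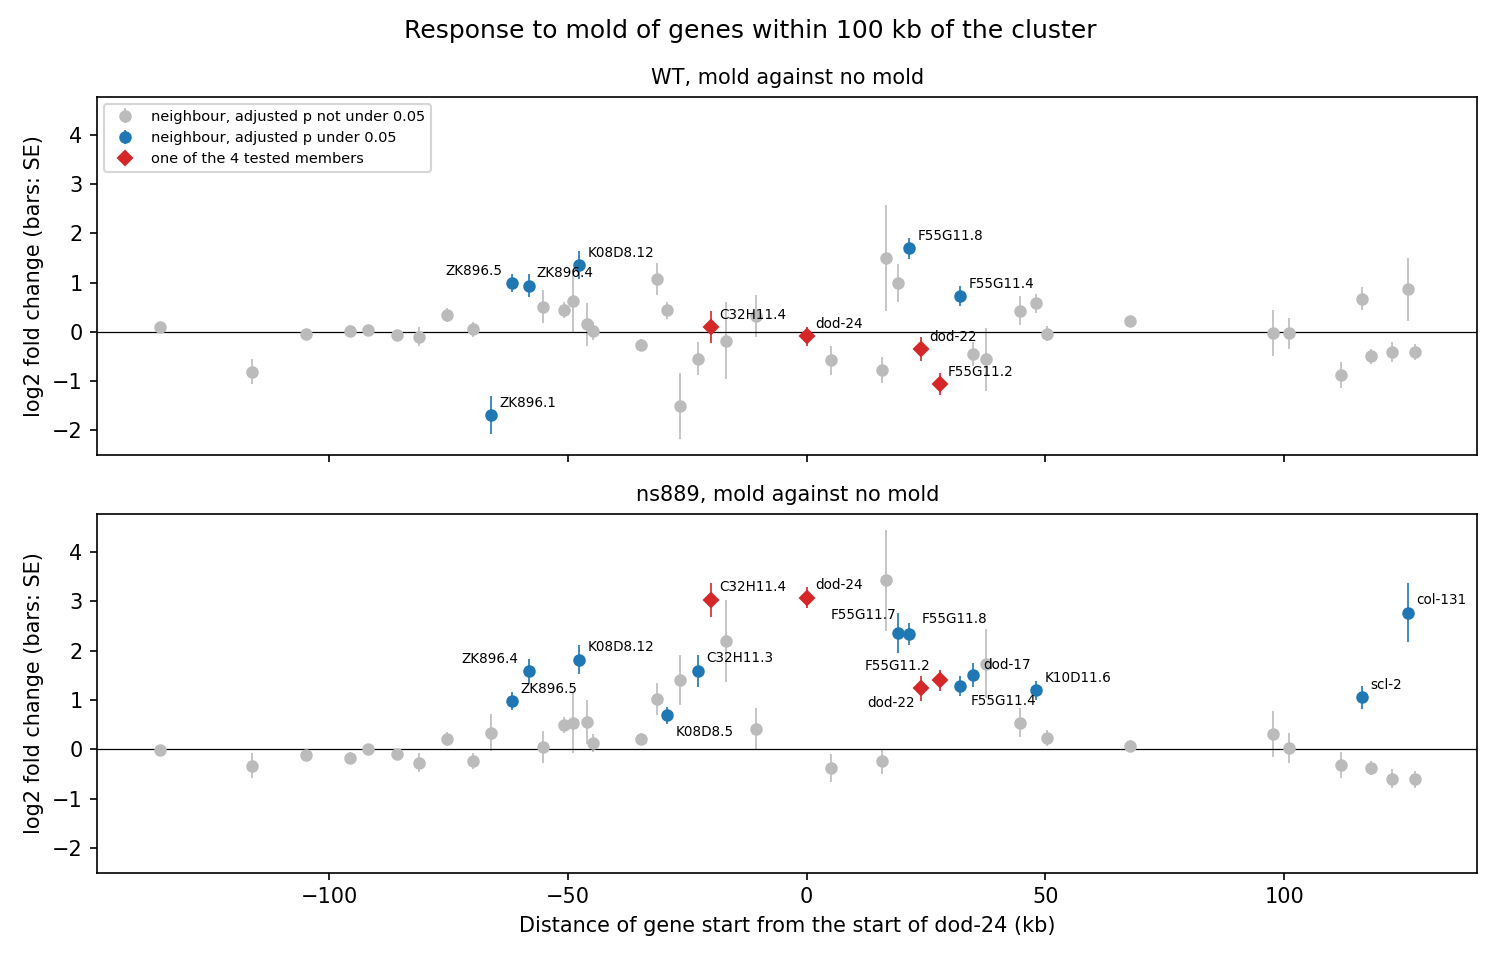
Log2 fold change with mold of every tested gene within 100 kb of the cluster, against the distance of its start from that of dod-24, in WT (top) and ns889 (bottom); bars are standard errors, diamonds are members, and blue points are neighbours past the threshold. In ns889 8 of the 12 blue points lie within 50 kb, and none is below 0.

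Neighbours were also compared between the genotypes. Without mold 1 of 45 was higher in ns889 (2.22%, against 2.42% of all genes), scl-5 (log2 0.82 ± 0.20, adjusted p = 0.0438), a call that was lost without any one of WT no-mold replicate 2 or 3 and the 3 libraries of ns889 without mold. On mold 5 of 45 were higher (11.1%, against 5.12% of all genes), and 9 in DESeq2. The 5 were irg-6, an infection response gene (log2 3.87 ± 0.62, adjusted p = 0.00263), C32H11.3 (1.75 ± 0.33), dod-17 (1.36 ± 0.25), K10D11.6 (0.72 ± 0.19) and col-131 (2.21 ± 0.58). irg-6 was low, with means of 0.0520 CPM in WT and 0.782 CPM in ns889 on mold. The count of 5 became 3 without WT mold replicate 2 or 3 or ns889 mold replicate 2, with K10D11.6 and col-131 lost. Both were also lost without ns889 mold replicate 1, and col-131 without ns889 mold replicate 3. Over all genes the 870 called higher became 408 without WT mold replicate 2, 506 without WT mold replicate 3 and 477 without ns889 mold replicate 2. The difference of the mold responses had 0 of 45 neighbours past the threshold in edgeR, against 10 at an unadjusted p under 0.05, 3 in DESeq2 and 0 in limma-voom. Of the tested genes in the region, only the 3 members passed in that contrast in edgeR, and they had been chosen with it known.

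Lists of related genes were then set beside the cluster. These lists too were chosen with earlier results of these data known. Their counts and p-values are therefore descriptions that are not independent of that choice. The other dod genes (6, with dod-17 among them) had 1 higher and 0 lower in WT on mold and 2 higher and 1 lower in ns889 on mold. Over all genes 1.67% were higher and 4.6% lower in WT, and 1.86% and 1.28% in ns889. dod-23 rose in WT from 12.78 ± 0.743 to 29.9 ± 8.94 CPM (log2 1.23 ± 0.20, adjusted p = 0.00678), in the opposite direction to F55G11.2. dod-19 rose in ns889 from 263 ± 44.4 to 713 ± 81.4 CPM (log2 1.44 ± 0.23, adjusted p = 0.00467). dod-3 fell in ns889 (log2 -1.91 ± 0.45, adjusted p = 0.0402), and this call was lost without any of the 6 ns889 libraries. The median log2 fold change of the 6 genes in ns889 was 0.80, against 2.22 for the 4 tested members and -0.0188 for all genes. The 6 include dod-3, which is not among the genes dod-17 to dod-24. On mold dod-17 was higher and dod-23 lower in ns889 than in WT, and the median log2 difference of the 6 was -0.0606. Over all 16980 genes 870 were higher and 273 lower in that comparison. Without WT no-mold replicate 1 the WT counts were 1 higher and 1 lower.

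Genes of the insulin and DAF-16 pathway did not pass in either mold response. These were 12 genes, from the receptor gene daf-2 to the transcription factor gene daf-16 and the insulin-like peptide genes daf-28 and ins-7. Their median log2 fold change was 0.179 in WT and 0.0604 in ns889, where 0 of 12 passed in edgeR, 1 and 0 had an unadjusted p under 0.05, and DESeq2 and limma-voom called 0. Without WT no-mold replicate 1, 5 of the 12 were higher in WT, as were 2263 of all 17227 genes tested. daf-16 itself was at 225 ± 5.14 CPM in WT without mold, 230 ± 13.0 in WT on mold, 213 ± 9.81 in ns889 without mold and 208 ± 8.40 in ns889 on mold. Of 8 genes that DAF-16 is known to activate, 1 rose in WT, the isocitrate lyase gene icl-1 (log2 0.59 ± 0.14, adjusted p = 0.0337), and 1 fell in ns889, the lysozyme gene lys-7. Over all genes 1.67% rose in WT and 1.28% fell in ns889. The icl-1 call was lost without WT no-mold replicate 2 or 3 or WT mold replicate 2, and the count was 2 without WT no-mold replicate 1. lys-7 went from 26.0 ± 4.77 to 5.58 ± 1.06 CPM in ns889 (log2 -2.22 ± 0.25, adjusted p = 4.44e-04), opposite to the members, and was at 15.4 ± 4.22 and 13.8 ± 3.73 CPM in WT.

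The p38 pathway list, 10 genes of the kinase cascade and the transcription factors around it, had 2 higher in WT, against 1.67% of all genes. The amounts were small for these 2 genes, atf-7 (log2 0.29 ± 0.05, adjusted p = 0.0126) and skn-1 (0.33 ± 0.07, adjusted p = 0.0283). Both were lost without WT no-mold replicate 2 or 3, and skn-1 without WT mold replicate 2 or 3. In ns889 0 of 10 passed in edgeR, with 5 higher and 1 lower at an unadjusted p under 0.05, 1 higher in DESeq2 and 0 in limma-voom. The kinase gene pmk-1 was at 11.79 ± 1.51, 12.83 ± 0.4997, 12.5 ± 0.638 and 13.6 ± 0.612 CPM in WT without and with mold and ns889 without and with mold.

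Of 10 genes known as targets of that pathway, 2 rose and 2 fell in WT, and 5 rose and 1 fell in ns889. Over all genes 1.67% rose and 4.6% fell in WT, and 1.86% and 1.28% did in ns889. Between ns889 and WT without mold 0 of the 10 had a positive log2 difference, with a median of -0.502. There 0 passed, and 4 were lower at an unadjusted p under 0.05 in edgeR. On mold 5 of 10 were positive and 1 passed, with a median of 0.0564, against 2.63 for the tested members. In the difference of the mold responses 8 of 10 were positive and 1, irg-5, passed. C17H12.8 rose in both genotypes (log2 1.54 ± 0.14 and 2.01 ± 0.14), as did the lysozyme gene lys-2, from 16.98 ± 4.15 to 73.4 ± 21.4 CPM in WT and from 10.6 ± 1.02 to 57.1 ± 18.9 CPM in ns889. The C-type lectin gene clec-67 was at 1.23 ± 0.667 and 12.4 ± 5.09 CPM in ns889, a log2 fold change of 3.33 ± 0.45 (adjusted p = 0.0015). The infection response gene irg-4 fell in WT (-2.46 ± 0.27) and in ns889 (-1.28 ± 0.26). Its relative irg-5 fell in WT from 3.13 ± 0.468 to 0.755 ± 0.0422 CPM (log2 -2.05 ± 0.28, adjusted p = 0.00182) and was at 2.04 ± 0.453 and 3.84 ± 1.44 CPM in ns889. Like F55G11.2, irg-5 was lowest in WT on mold; unlike it, its libraries of ns889 on mold overlapped with WT without mold. In ns889 clec-85 (0.92 ± 0.18) and K08D8.5, which is also a neighbour of the cluster, made up the 5. The ns889 counts became 3 higher and 0 lower without ns889 no-mold replicate 2 or 3 or ns889 mold replicate 1, with clec-85, irg-4 and K08D8.5 lost; irg-4 was lost without ns889 mold replicate 3 as well.

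**Figure D4:**
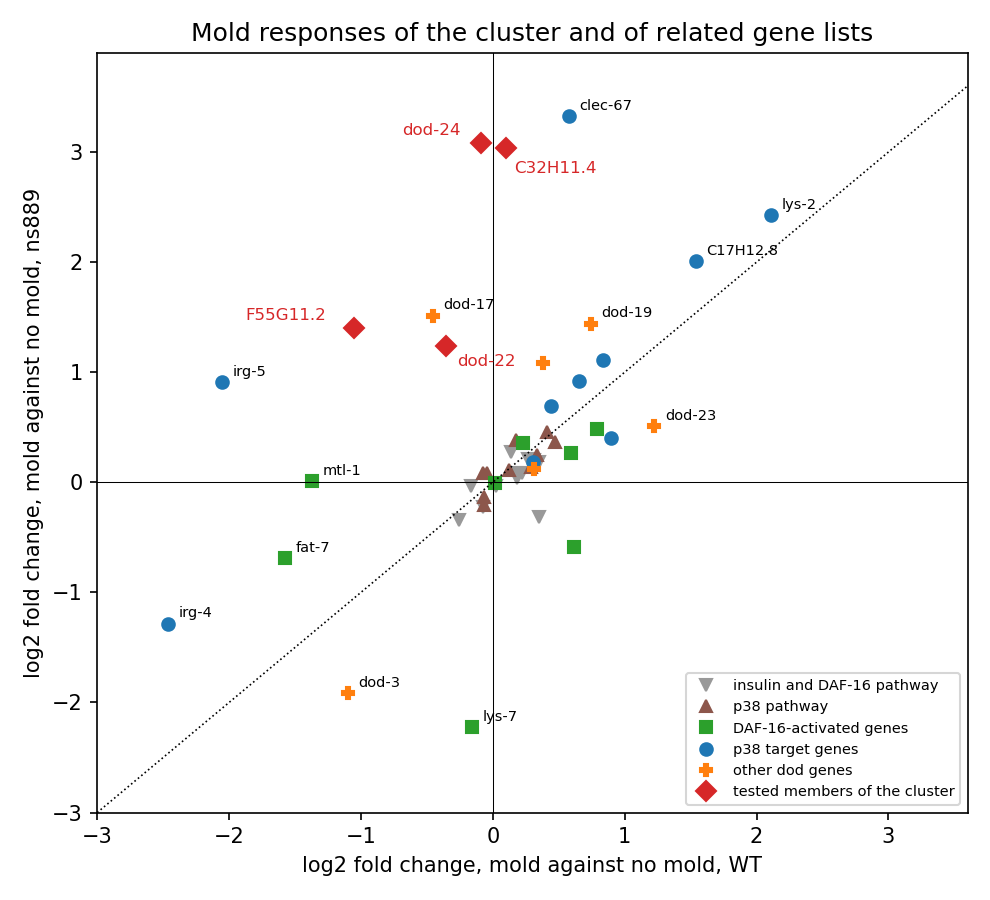
Log2 fold change with mold in WT (horizontal) and in ns889 (vertical) of the tested members and of 5 lists of related genes; the dotted line marks equal responses. All 4 members lie above the line, with dod-24 at -0.09 and 3.08. On the same side lie 8 of 10 p38 target genes, with irg-5, and 3 of 6 other dod genes, with dod-17. So do 4 of 10 p38 pathway genes, 3 of 8 DAF-16-activated genes and 2 of 12 insulin and DAF-16 pathway genes. Over all genes tested the median difference of the responses was -0.0328.

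The genes most like dod-24 over the 12 libraries, by Pearson's r of log2(CPM + 0.5), were R03H10.6 (0.975, chromosome II), Y41D4B.15 (0.970, chromosome IV outside the window), Y26D4A.3 (0.963, chromosome I), gst-38 (0.954, chromosome V) and F10D2.10 (0.949, chromosome V). C32H11.4, at 0.932, was the member most like dod-24. gst-38, a glutathione S-transferase gene, was at 2.09 ± 0.354 CPM in WT without mold, 3.17 ± 1.42 in WT on mold, 1.96 ± 0.849 in ns889 without mold and 34.6 ± 19.3 in ns889 on mold. F10D2.10 was at 3.49 ± 0.361, 3.82 ± 0.531, 3.87 ± 0.172 and 9.69 ± 0.630 CPM in the same order. Like dod-24, both were far higher in ns889 on mold than in any other group, which is what this measure selects. The other 3 were low: R03H10.6 was at 2.45 ± 0.415 CPM in ns889 on mold, Y41D4B.15 at 0.416 ± 0.121 CPM and Y26D4A.3 at 0.193 ± 0.0626 CPM.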

How the data were processed

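The table that the authors deposited holds raw counts for each gene and run. The genome build WBcel235 and the tools STAR 2.4a, featureCounts, FastQC 0.11.12, edgeR 3.28.1 and limma 3.42.2 are named per the submitters' processing notes. The sources used here give neither the strand setting nor the treatment of reads with several matches. There is 1 run for replicate 1 of a group, and the 2 runs of replicates 2 and 3 were summed, which makes 12 libraries of 20 runs.

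The members and gene lists were chosen with earlier results of these data known. After filterByExpr and TMM scaling, 16980 genes were fitted in 1 model of the 4 group means; the test was edgeR's quasi-likelihood test (R 4.3.3, edgeR 4.0.16, robust fit). The Benjamini-Hochberg adjustment ran over all of them, with a threshold of 0.05. CPM values include the TMM scaling. Lists were described by counts and medians, without a set test. Named were the members, the tested genes between the outermost members, in each contrast the 3 neighbours with the largest change past the threshold and up to 3 genes of each list past it, and the 5 genes most like dod-24. Any other gene was chosen after its values were seen. The steps were tested on simulated counts with the same trend of spread in every library. That test does not cover libraries that lie far from their group, such as WT no-mold replicate 1. Alternatives used DESeq2 1.42.0 and limma-voom (limma 3.58.1), other filters and scaling, the replicate number as a block, and left-out libraries; the omission of 2 libraries together was chosen after seeing the data. Figures were drawn with matplotlib 3.10.9. No genome sequence was used.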

Additional observations from a re-analysis of the deposited data

Results flagged for a closer look

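Of the members and the lists of related genes, 5 genes were flagged for a difference between their mold responses in ns889 and WT. The flag rests on edgeR's quasi-likelihood test over all genes, in which 22 genes passed in all. Of the 5, 3 are members of the cluster. They were chosen with this contrast known, so their values are descriptions and the test adds nothing for them. The log2 difference was 3.17 for dod-24, 2.94 for C32H11.4 and 2.45 for F55G11.2, with a more positive response in ns889. The lists that hold irg-5 and lys-7 were also chosen with earlier results of these data known. The p-values of both genes are therefore not independent of that choice. The infection response gene irg-5 had a difference of 2.96 (SE 0.38, adjusted p = 0.00566) and kept its call without any single library. The lysozyme gene lys-7 had a difference of -2.07 (SE 0.34, adjusted p = 0.0372). Its call was lost in limma-voom and without any one of WT no-mold replicate 3, WT mold replicate 2 and the 6 ns889 libraries, with adjusted p between 0.0505 and 0.141. Groups of 3 are too small for the rule that looks for single outlying samples.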

How the results depend on the processing

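Of 395 values of the members' fold changes under other settings, 337 kept direction and side of the threshold, 41 kept the direction and were no longer past it, 11 came past it and 6 changed sign. The sign changes were all in the WT response. With single libraries left out C32H11.4 ranged from -0.19 to 0.33 and dod-24 from -0.26 to 0.066. C32H11.4 was at -0.15 without replicate 1 of every group and at -0.069 without WT no-mold replicate 1 and WT mold replicate 3 together, and dod-24 at 0.089 without replicate 3 of every group. The causes were not tested, apart from fewer samples or genes where a setting removes them.

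Members past the threshold in WT (1) became 0 in limma-voom, with the replicate block, with a minimum log2 fold change of 1, in a fit of the 2 groups alone and without replicate 2 or 3 of every group, and 0 to 1 without single libraries. In ns889 the 4 became 2 with the minimum fold change, 1 without every replicate 2 and 3 to 4 without single libraries. Without mold, the 0 members that differed between genotypes became 1 (dod-22) with RLE size factors, DESeq2, limma-voom, no filter, the replicate block, the 2 libraries left out together and every replicate 1 left out, and 0 to 1 without single libraries. In the difference, 3 became 2 in limma-voom, 4 in DESeq2, 1 with the minimum fold change, 0 without every replicate 2, 1 without every replicate 3 and 2 to 3 without single libraries. The 3 on mold were 2 or 3 under every alternative run.

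Neighbours past the threshold in WT (6) were 13 in DESeq2, 1 with a filter of 5 CPM, 2 with the replicate block, 0 with the minimum fold change, 0 in a fit of the 2 groups, 15 without the 2 libraries, 16, 0 and 1 without every replicate 1, 2 and 3, and 1 to 13 without single libraries. In ns889 (12) they were 3 with the filter, 1 with the minimum fold change, 1 and 6 without every replicate 2 and 3, and 7 to 10 without single libraries. Between genotypes without mold (1) they were 0 with RLE, no filter, the 5 CPM filter, the first run only, the replicate block, the minimum fold change, the 2 groups alone and every replicate 2 or 3 left out, 2 in DESeq2, 4 without the 2 libraries or every replicate 1, and 0 to 2 without single libraries. On mold (5) they were 9 in DESeq2, 9 with no filter, 1 with the filter, 1 with the minimum fold change, 9 without the 2 libraries, 13, 0 and 1 without every replicate 1, 2 and 3, and 3 to 7 without single libraries. In the difference (0) they were 1 with RLE, 3 in DESeq2, 2 without the 2 libraries, 5 without every replicate 1 and 0 to 1 without single libraries.

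Equal replicate numbers did not pair the samples: over 18 pairs of libraries r of the deviations was -0.48 to 0.51, 8 pairs were above 0.1, and 6 of 12 libraries correlated best with their own number. With the replicate block C32H11.4 lost its call in the difference (log2 2.95), and the log2 fold change of F55G11.2 in WT was -1.04 (adjusted p = 0.0511). A fit of only the groups compared is the full model for the difference. Similarity of the proteins and promoter motifs were not run, since no sequence was at hand. The depth limits dod-21, which stayed at or near the floor of 3 counts, and dod-22.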
